A study of Mus musculus with 2 samples.

Results

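Lymphatic endothelial cells of the mouse aortic root and ascending aorta were selected on deposited values, as the cells in which Pecam1, Cdh5 and Cldn5 summed to at least 3, Mmrn1, Prox1 and Flt4 summed to at least 3, Myh11 lay under 20 and C1qa, C1qb and C1qc summed to under 5. This left 152 of 7358 cells, 97 of 4397 with GLPG0187 and 55 of 2961 with vehicle. Blood vessel endothelial cells passed the same gates with Mmrn1, Prox1 and Flt4 summing to under 3, and numbered 100 and 75. The 3 endothelial genes encode junction proteins, Myh11 is the smooth muscle myosin heavy chain, and C1qa to C1qc are macrophage genes. These values chose the cells, so levels of the rule genes and every contrast of lymphatic with blood vessel cells are descriptions with no test.

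The libraries were single-cell RNA profiles of Fbn1C1041G/+ mice at 16 weeks, 1 from mice given GLPG0187 every day from week 6 to week 16 and 1 from controls given vehicle over the same weeks. All mice carried the fibrillin-1 mutation, a model of Marfan syndrome, and no wild-type aorta entered the comparison. GLPG0187 is an inhibitor of integrins that contain the alpha-v subunit. Each library came from 1 pool of aortas with as many males as females, and the number of animals in a pool is not stated in the sources used here. Each deposited value is a whole number and was treated as corrected for depth and not as a molecule count, because totals per cell are nearly even. The labels do not describe such a step. They summed to 12078 to 16719 per cell over all cells, with a median of 13455 in lymphatic cells of the GLPG0187 library and 13427 in those of the vehicle library. Lymphatic cells carried a median of 3024 and 3000 detected genes, and 2 and 0 of them were called doublets. The libraries shared 5 cell barcodes, of which 0 belonged to lymphatic cells. Because each group was a single library, GLPG0187 was not tested against vehicle, and an effect of the drug cannot be told apart from one of the pool, its dissection or its library.

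Lymphatic vessels drain fluid, lipids and immune cells from tissue, and those of the aorta run mainly in the adventitia, the outer coat. Their endothelium is set apart from that of blood vessels by the transcription factor Prox1 and by Flt4, the receptor VEGFR-3 that binds the growth factor VEGF-C. Blind-ended capillaries that carry Lyve1 and release the chemokine Ccl21 take up fluid and cells, and collecting vessels with valves carry the lymph away.

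Lymphatic cells made up 2.21% of the GLPG0187 library (95% exact Clopper-Pearson interval 1.79 to 2.68) and 1.86% of the vehicle library (1.40 to 2.41). Of the gated endothelial cells they made up 49.2% (42.1 to 56.4, 97 of 197 cells) and 42.3% (33.7 to 51.3, 55 of 130 cells). The intervals of both libraries overlapped on either denominator, and with 1 library per group the difference in share was not tested. Among cells with Xist and no Y-linked transcript the shares were 2.26% (26 of 1149) and 1.26% (12 of 951). Among cells with a Y-linked transcript and no Xist they were 2.10% (57 of 2709) and 1.86% (31 of 1668). These intervals cover counting error only, and digestion and sorting before the cells were counted can also set a share.

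The marker genes were present in most members. Mmrn1, a secreted glycoprotein of lymphatic endothelium at chr6:60924976-60989378, was above 0 in 85.6% of lymphatic cells of the GLPG0187 library and 87.3% of those of the vehicle library. Its value per cell ran from 0 through a median of 16 to 78 with GLPG0187, and from 0 through 18 to 61 with vehicle. Prox1, the transcription factor at chr1:190118035-190170714, had means of 5.20 and 5.56 and was above 0 in 84.5% and 94.5% of cells. Flt4, at chr11:49609263-49652739, had means of 6.03 and 5.55. The medians of these rule genes lay at 0 in blood vessel cells.

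Of the 3 markers that the rule did not use, Nts was broad and the other two were not. Nts, which encodes the peptide neurotensin at chr10:102481756-102490486, was above 0 in 85.6% and 87.3% of lymphatic cells, with means of 31.5 and 21.2 against 0.790 and 1.11 in blood vessel cells. Single lymphatic cells reached 414 and 179. The blood vessel means rest on few cells, since only 7% and 1.33% of those cells were above 0 and single ones reached 50 and 83. Ccl21a, the chemokine that draws dendritic cells and T cells into lymphatics, lies at chr4:42772860-42773993 and was above 0 in only 25.8% and 27.3% of lymphatic cells. Its median was therefore 0 in both libraries while its highest cells reached 546 and 614. It was listed at 0 in all 100 and 75 blood vessel cells, which allows shares of up to 3% and 4%. Ccl21a has near-identical copies in the mouse genome, and how reads were divided among them is not known, so its level is uncertain. Reln, the secreted protein reelin at chr5:21884454-22344702, was above 0 in 40.2% and 43.6% of lymphatic cells, with means of 1.86 and 1.78, and was listed at 0 in blood vessel cells. In smooth muscle cells with Myh11 of at least 20 and no endothelial gene, which should lack these genes, Ccl21a was above 0 in 1.41% and 0.733% of cells. These reference cells carried medians of 4051 and 4197 detected genes. All 6 markers were found together in 18 and 11 lymphatic cells. Coordinates are those of GENCODE vM21 on GRCm38, the build also called mm10.

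**Figure D1:**
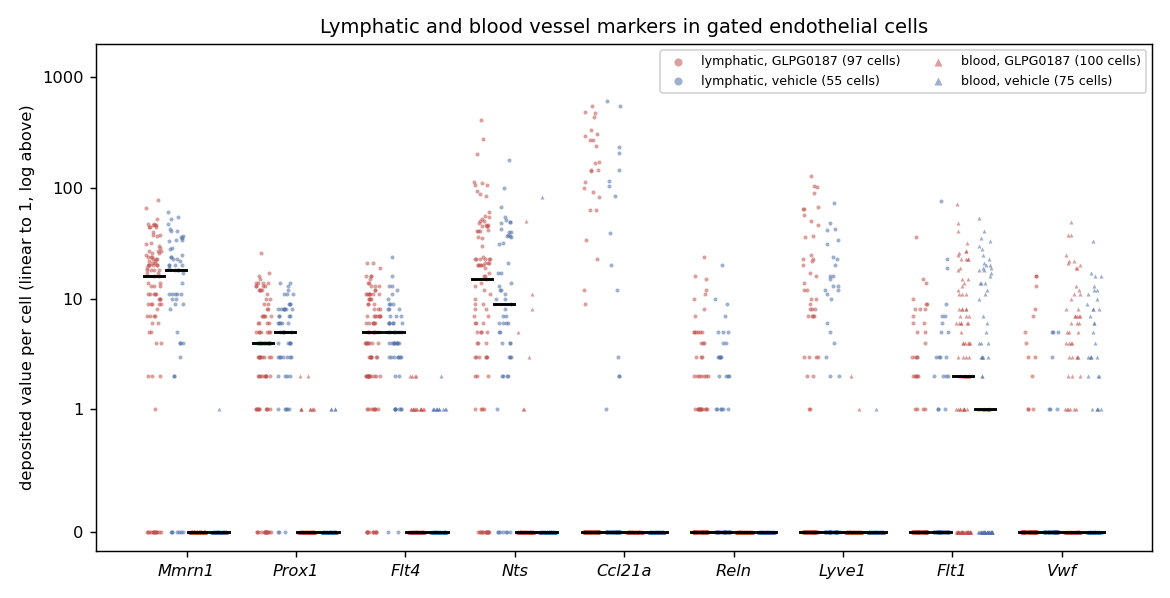
Deposited value per cell (vertical axis, linear to 1 and logarithmic above) for lymphatic markers and the blood vessel markers Flt1 and Vwf, with 1 point per cell, circles for lymphatic and triangles for blood vessel cells, red for GLPG0187 and blue for vehicle, and a black bar at each median. Mmrn1, Prox1, Flt4 and Nts fill most lymphatic cells, while Ccl21a, Reln and Lyve1 are at 0 in most, and Reln is low in many of the rest.

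The label did not hold for every member. Mmrn1 was at 0 in 14 and 7 lymphatic cells, and Mmrn1 and Nts were both at 0 in 9 and 4. Those 9 and 4 cells had Flt1, the blood vessel receptor VEGFR-1, at means of 11 and 32.0, against 0.875 and 1.04 in the other lymphatic cells. Vwf, the clotting factor carrier of blood vessel endothelium, stood at 6.67 and 2.00 against 0.227 and 0.255. The fibroblast proteoglycan Dcn stood at 92.3 and 42.3 against 11.9 and 3.78. Maf, a transcription factor that was present in most other members, was at 0 in all of these cells. These cells thus carried Prox1, at means of 4 and 6.50, or Flt4 together with blood vessel genes. Of the cells with a sum of 3 to 5, 9 with GLPG0187 and 1 with vehicle, 8 and 1 had Flt1 and 2 and 0 had Nts. Of the cells with a sum of 1 or 2, just outside, 20 of 25 and 12 of 16 had Flt1, and 3 and 1 had Nts. Most members lay far from the threshold, with a median sum of 26 in each library and 83 of 97 and 52 of 55 cells at 10 or more.

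The blood vessel class was mixed as well. Pecam1 was above 0 in 98% and 100% of its cells, but Cdh5 only in 64% and 68% and Cldn5 in 38% and 48%. The sum of Dcn and Lum, a pair of fibroblast matrix genes, was 20 or more in 52 of 100 and 30 of 75 blood vessel cells, and in 12 of 97 and 4 of 55 lymphatic cells. The summed fibroblast list had a median of 45.5 (0 to 1037) and 25 (3 to 762) in blood vessel cells and 14 in lymphatic cells of both libraries (0 to 639 and 0 to 96). The part of these transcripts in the contrast was not tested. List values without such cells are given where they differ, while the means of single genes in the contrast include such cells. Defining macrophage genes were near 0. Ptprc, Csf1r or Cd68 was above 0 in 2 and 1 lymphatic cells. The summed macrophage list, with 2 and 4 of its 10 genes at 0, ranged from 0 to 4 and 0 to 3. That list holds C1qa, C1qb and C1qc, which the selection rule limited, so its low sum is partly set by the rule. All 6 mesothelium genes were at 0 in lymphatic cells. The smooth muscle list had medians of 19 and 16 in lymphatic cells against 791 and 761.5 in the smooth muscle reference. It holds Myh11, which was under 20 by rule in lymphatic cells and at least 20 in the reference, so part of this gap is set by the selection.

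The first contrast asks how lymphatic cells differed from blood vessel endothelium of the same aortas. A gene was measured when above 0 in at least 10% of the cells of either class, and was called by size when the means differed at least 2-fold the same way in both libraries, after 0.05 was added to each mean. Of 8892 measured genes 3.81% (339) were higher and 7.61% (677) were lower in lymphatic cells. Log2 ratios below are those of the library nearer 0, and the median over all measured genes was 0.00.

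Secreted and surface proteins led the genes that were higher. Lyve1, the hyaluronan receptor at chr7:110850607-110863239, had means of 11.7 and 8.71 in lymphatic cells and 0.0300 and 0.0133 in blood vessel cells. Clca3a1, a surface protein, had means of 8.53 and 8.95 against 0.20 and 0.0933, and was above 0 in 84.5% and 81.8% of lymphatic cells. Lbp, which binds bacterial lipopolysaccharide, had means of 8.43 and 9.64 against 0.460 and 0.240, with 90.7% and 94.5% of lymphatic cells above 0. Lcn2, an iron-scavenging protein of innate defence, had means of 6.34 and 6.64 against 0.310 and 0.0533. Both of these defence genes were thus found in most lymphatic cells of each library. Sema3a and Sema3d, guidance ligands, had means of 2.34 and 1.98, and of 6.18 and 5.49, against at most 0.440 in blood vessel cells. Duox2, which makes hydrogen peroxide, had means of 1.41 and 1.44 against 0.0200 and 0. Htr2b, a serotonin receptor, had means of 1.72 and 1.22 against 0.01 and 0.0400. The list of lymphatic surface and secreted genes had 13 of 14 measured members higher and 0 lower, with a median log2 ratio of 3.14.

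Transcription factors divided into a lymphatic group and a shared group. Maf had means of 7.55 and 8.65 against 0.150 and 0.293. Nr2f2, the vein and lymphatic factor COUP-TFII, had means of 4.54 and 4.55 against 0.940 and 1.05. Tbx1 had 1.29 and 1.58 against 0.120 and 0.107, and Foxc2, needed for lymphatic valves, had 1.05 and 1.51 against 0.420 and 0.453. Sox18, which switches on Prox1 in the embryo, was at like levels in both classes, at 1.96 and 2.27 against 1.84 and 1.72. The flow-responsive factor Klf2 was also found in both, at 20.3 and 18.2 against 15.2 and 23.2. Of 12 measured identity factors other than Prox1, 5 were higher and 0 lower, with a median of 0.49. Dtx1, a regulator of Notch signalling, had means of 3.19 and 2.40 against 0.05 and 0.0533.

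In the VEGF-C axis receptors were higher and the ligand was lower in lymphatic cells. Kdr, the receptor VEGFR-2, had means of 5.34 and 4.73 against 1.46 and 1.99. Nrp2, the co-receptor for VEGF-C, had 4.90 and 3.95 against 0.860 and 1.13. Calcrl, which forms the adrenomedullin receptor with Ramp2, had 7.29 and 6.25 against 1.69 and 1.37, and its ligand Adm had 1.46 and 2.58 against 0.360 and 0.227. Vegfc itself stood at 0.113 and 0.0909 against 0.360 and 0.587. Adamts14 was at 0 in both classes, and Ccbe1 and Adamts3, which help to activate VEGF-C, were above 0 in too few cells to be measured. Without Flt4, 7 of 12 measured members were higher and 2 lower, with a median log2 ratio of 1.12. In cells with Xist alone that median was 0.52.

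Genes of immune cell traffic were divided between the classes. Ackr2, Ackr3 and Ackr4, decoy receptors that clear chemokines or adrenomedullin, were all higher in lymphatic cells. Ackr3 had means of 8.98 and 7.07 against 1.96 and 1.96. Il7, a survival factor for lymphocytes, had 1.24 and 0.909 against 0.0600 and 0.0400. Spns2, which exports sphingosine-1-phosphate, had 1.04 and 1.62 against 0.290 and 0.400. The 4 that were lower were Vcam1, Selp, Cx3cl1 and Cxcl12. Vcam1, an adhesion receptor for leukocytes, had means of 2.56 and 1.16 against 17.3 and 11.6, and the chemokine Cxcl12 had 1.04 and 1.67 against 6.64 and 7.71. In all, 9 of 21 measured members were higher.

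Blood vessel genes and genes of lipid uptake were lower in lymphatic cells. Of 20 measured blood vessel genes 12 were lower and 1, Efnb2, was higher, with a median log2 ratio of -1.39. Cytl1, a secreted protein, had means of 3.08 and 1.89 against 42.4 and 39.2. Ly6c1, a surface protein of a multigene family, had 0.887 and 0.964 against 14.3 and 13.6. Sox17, an arterial transcription factor, had 0.0412 and 0.127 against 1.01 and 1.56. Cd34, a surface sialomucin, was also lower, at 2.40 and 1.91 against 7.27 and 6.61. Of 15 measured lipid genes 8 were lower and 0 higher, with a median of -1.17. The fatty acid carriers Cd36 and Fabp4 had means of 0.557 and 0.836, and of 8.53 and 11.9, in lymphatic cells, against 4.73 and 7.32, and 35.4 and 58.7. Without cells whose Dcn and Lum summed to 20 or more, the median of the lipid list was -0.46 and that of the blood vessel list was -1.97. All 10 genes of the fibroblast list were lower in lymphatic cells with a median of -2.52, which was -0.14 without those cells.

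Genes of cell contact and matrix differed less. Of 10 measured junction genes 2 were lower and 0 higher in lymphatic cells, with a median of 0.01. Jam2, an adhesion protein of tight junctions, had means of 0.299 and 0.145 against 2.80 and 3.57, and Esam, a related protein, had 1.04 and 1.25 against 3.54 and 4.63. Of 13 basement membrane genes 1 was higher and 1 lower, with a median of 0.00, and the laminin gene Lama4 stood at 2.70 and 3.04 against 1.04 and 0.880. In the Notch pathway, which patterns arteries, 4 of 12 genes were lower and 0 higher, with a median of -0.55. The ligand Jag2 had 0.0722 and 0.127 against 0.360 and 0.653, while the receptor Notch1 had 2.66 and 2.82 against 2.32 and 2.05.

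**Figure D2:**
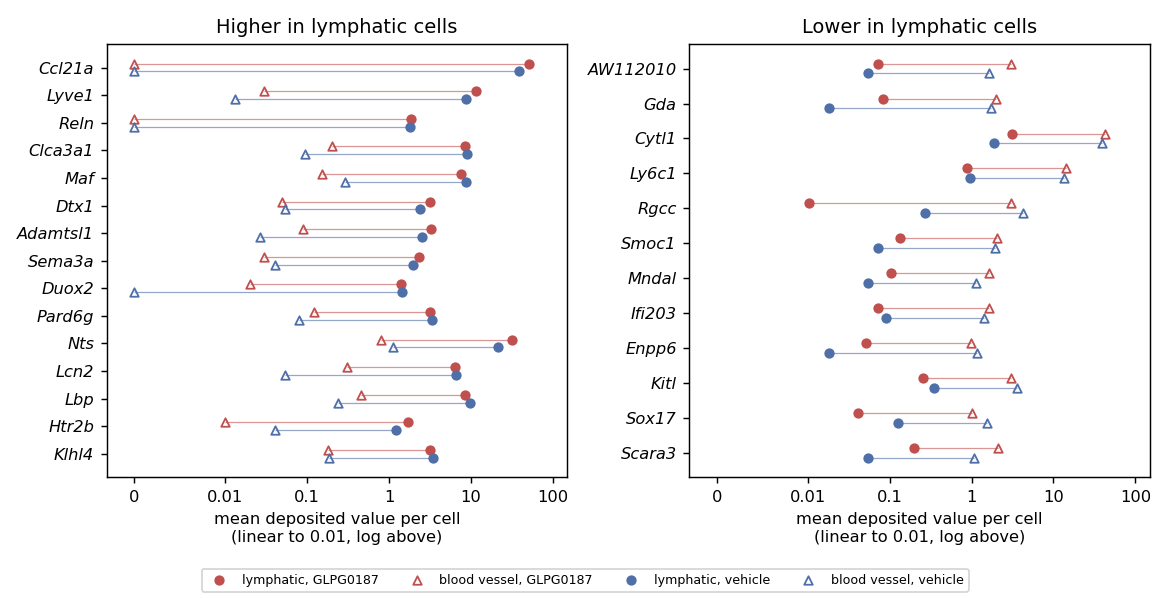
Mean deposited value per cell (horizontal axis, linear to 0.01 and logarithmic above) of the 15 higher and 12 lower genes with the largest log2 ratios, in lymphatic (filled circles) and blood vessel cells (open triangles) of the GLPG0187 (red) and vehicle (blue) libraries. The same class is higher in both libraries for each gene, and Ccl21a and Reln are listed at 0 in blood vessel cells.

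Since GLPG0187 acts on alpha-v integrins, the genes of their subunits and some other integrin genes were described by name. Itgav encodes the alpha-v subunit itself and had means of 1.16 and 0.873 in lymphatic cells and 1.20 and 0.920 in blood vessel cells. Its partners differed between the classes. Itgb3 had means of 0.845 and 0.782 in lymphatic cells against 0.210 and 0.0667, while Itgb5 had 0.474 and 0.436 against 1.03 and 1.52. Itgb6 was at 0 in both classes, and Itgb8 had 0.134 and 0 in lymphatic cells. Itgb1, the common beta-1 subunit, had means of 11.9 and 11.1 against 12.6 and 12.7. Itga9, which pairs with beta-1 and is known from lymphatic valves, had 2.54 and 2.65 against 1.25 and 0.773. Itga1, a collagen receptor, had 0.526 and 0.400 against 3.51 and 2.71. Between the libraries, 0 of the 11 integrin genes measured in lymphatic cells differed 2-fold, where 2.96% of all measured genes were higher and 1.30% lower with GLPG0187, a share too low for the 0 to say anything of integrins. Their median log2 ratio for GLPG0187 over vehicle was 0.11. Among 9 measured ligands of alpha-v integrins the one with the widest gap was Cyr61, a matricellular protein, at 3.69 with GLPG0187 and 8.02 with vehicle in lymphatic cells and 1.99 and 5.83 in blood vessel cells. That gene was singled out after its values had been seen.

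TGF-beta, which alpha-v integrins can activate, and the related BMP pathway differed between the classes. Tgfbr2, a TGF-beta receptor, had means of 4.58 and 5.51 in lymphatic cells against 2.17 and 1.81. Smad1, which carries BMP signals, had 2.37 and 3.20 against 0.930 and 1.09. The inhibitory gene Smad7 had 1.14 and 1.35 against 3.78 and 3.59, and the TGF-beta target Ctgf had 2.13 and 2.56 against 8.60 and 8.16. In all, 2 of 19 measured members were higher and 6 lower in lymphatic cells. In GLPG0187 over vehicle, 0 of 18 passed 2-fold in lymphatic cells, again close to the share over all genes, with a median of -0.26 against -0.01 over all genes. Among Xist-only cells 3 were higher and 2 lower, where 1475 and 717 of all 7761 genes were. Among Y-only cells 0 were higher and 2 lower, where 387 and 314 of all 7761 genes were. Counts this small say nothing particular of this list.

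Among themselves, lymphatic cells fell into those with Lyve1 and those without, a grouping made after the values had been seen. Lyve1 was above 0 in 40 of 97 and 24 of 55 lymphatic cells. Ccl21a was above 0 in 22 of these 40 and 13 of these 24 cells, but in 3 of 57 and 2 of 31 cells without Lyve1. The means of Ccl21a were 120 and 79.4 with Lyve1 and 3.96 and 7.71 without. Of 8440 measured genes, 1.29% (109) were at least 2-fold higher and 2.91% (246) lower by that much in cells with Lyve1, each in both libraries. Both groups carried like numbers of detected genes, with medians of 3101 and 2939 with Lyve1 and 2983 and 3082 without. Lyve1 was at 0 in 8 of the 9 and 4 of the 4 cells named above that lacked Mmrn1 and Nts. Without those cells 138 genes were higher and 187 lower.

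Cells with Lyve1 also carried more Reln and Nrp2, other genes of lymphatic capillaries or growth. Reln had means of 3.75 and 3.00 with Lyve1 and 0.526 and 0.839 without. Nrp2 had 8.57 and 6.58 against 2.32 and 1.90. Igfbp3, which binds insulin-like growth factors, had 2.33 and 3.54 against 0.211 and 0.194, and Pgf, a VEGF family ligand, had 1.15 and 1.12 against 0.211 and 0.0323. Mrc1, a mannose receptor, was above 0 in 25% and 20.8% of cells with Lyve1 and in 0% and 3.23% without, where 0 of 57 cells allows up to 5.26%.

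Of the collector and valve list, Foxc2, Cldn11, Clu, Fn1 and Gja4 were higher in cells without Lyve1. Foxc2 had means of 0.525 and 0.542 with Lyve1 and 1.42 and 2.26 without. Cldn11, a claudin known from lymphatic valves, had 0.125 and 0.167 against 0.947 and 0.613. Clu, a secreted chaperone, had 2.25 and 1.79 against 13.7 and 10.3, and Fn1, the valve matrix protein fibronectin, had 2.08 and 2.54 against 8.53 and 7.58. Of 14 measured collector and valve genes, 5 were lower and 2 higher in cells with Lyve1, with a median of -0.36. Of 8 measured capillary genes other than Lyve1, 3 were higher and 1 lower with Lyve1, with a median of 0.54. The lower one was Ackr4, which scavenges Ccl21, at 0.225 and 0 with Lyve1 against 0.860 and 2.39 without. Bmp4, a BMP ligand in neither list, had 0.150 and 0.0417 against 1.19 and 1.77. Flt1 stood at 0.325 and 0.125 against 2.86 and 5.74, and at 0.256 and 0.125 against 1.37 and 1.85 without the cells that lacked Mmrn1 and Nts. Without them Fn1 in cells with no Lyve1 was 4.53 and 5.56, Clu was 12.7 and 10.5, and Cldn11 was 0.673 and 0.667. Nts was above 0 in 95.0% and 95.8% of cells with Lyve1 and 78.9% and 80.6% without, so it marked both groups. Prox1 was not lower without Lyve1, at 5.37 and 6.97 against 4.95 and 3.75 with it. The other rule markers were lower without Lyve1, Mmrn1 at 11.8 and 14.7 against 27.4 and 25.1, and Flt4 at 3.70 and 3.97 against 9.35 and 7.58. The rule needs a minimum sum of these genes. Cells low in Mmrn1 and Flt4 thus entered only with Prox1, whose level is partly set by the selection.

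**Figure D3:**
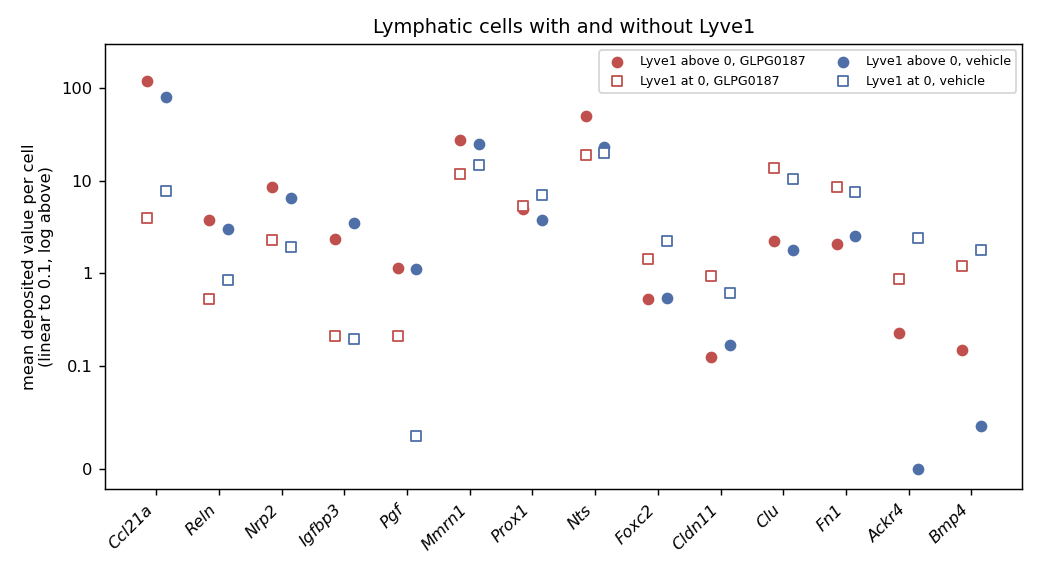
Mean deposited value per cell (vertical axis, linear to 0.1 and logarithmic above) of 14 genes in lymphatic cells with Lyve1 above 0 (filled circles, 40 and 24 cells) and at 0 (open squares, 57 and 31 cells), red for GLPG0187 and blue for vehicle. Ccl21a, Reln, Nrp2, Igfbp3 and Pgf are higher with Lyve1 in both libraries, and Foxc2, Cldn11, Clu, Fn1, Ackr4 and Bmp4 are lower.

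The last comparison sets lymphatic cells of the GLPG0187 library beside those of the vehicle library. Of 7761 genes measured in lymphatic cells, 2.96% (230) were 2-fold or more higher with GLPG0187 and 1.30% (101) were lower by as much. Over lists of this length those shares give under 1 gene, so a count of 0 describes nothing particular to a list. None of 12 measured identity factors, 0 of 14 surface and secreted genes and 0 of 11 genes of the VEGF-C axis passed 2-fold, with medians of -0.03, 0.03 and 0.20. Within the sexes some of these genes lay further apart. Among Y-only cells 387 of all 7761 genes were higher with GLPG0187 and 314 lower. There 4 of 14 surface and secreted genes were higher and 0 lower (median 0.49). Of 8 capillary genes 3 were higher and 1 lower (median 0.85). These lists share members such as Lyve1 and Ccl21a, so they are not separate results. Ccl21a had means of 42.8 and 2 in Y-only cells. Among Xist-only cells Clca3a1 had means of 7.69 and 1.67 and Nts of 31.7 and 10.4. Among Y-only cells Clca3a1 had 9.77 and 12.3. Of 18 measured trafficking genes 3 were higher and 1, Ackr4, was lower with GLPG0187, with a median of -0.10. The 3 were Ackr2 with means of 2.36 and 0.800, Vcam1 with 2.56 and 1.16, and Cd274, the checkpoint ligand PD-L1, with 0.299 and 0.0909. Genes of the interferon response and of antigen presentation were higher with GLPG0187.

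Interferons are signals of infection and inflammation that switch on guanylate-binding proteins, immunity-related GTPases and the machinery that loads peptides on MHC molecules. In lymphatic cells 13 of 20 measured interferon genes were at least 2-fold higher with GLPG0187 and 0 lower, with a median log2 ratio of 1.44 against -0.01 over all genes. Igtp, an immunity-related GTPase, had means of 1.79 and 0.273 and was above 0 in 50.5% and 18.2% of lymphatic cells, a log2 ratio of 2.51. In smooth muscle reference cells it was above 0 in 4.15% and 2.93%. Gbp4, a guanylate-binding protein, had means of 1.99 and 0.291 (44.3% and 16.4% of cells, reference 0.741% and 0.183%). Gbp2, of the same family, had 2.46 and 0.455. Isg15, a ubiquitin-like protein, had 3.20 and 1.16. Other members stayed under 2-fold, such as Ifitm3 with means of 55.5 and 37.9 and Ifi27l2a with 26.7 and 17, and Ifi27 was not higher, at 3.55 and 3.98. Summed over the list, a lymphatic cell held a median of 117 (32 to 313) with GLPG0187 and 67 (20 to 195) with vehicle, so the cells of both libraries overlapped. The guanylate-binding proteins and these GTPases are families of close copies, and reads shared between copies may have been divided or lost.

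In the MHC list 9 of 10 measured members were at least 2-fold higher with GLPG0187, with a median of 1.96. Class I genes act in nearly every cell type. B2m, the light chain of class I, had means of 44.9 and 14.9, H2-K1 had 25.8 and 9.55, and H2-D1 had 38.5 and 19.6. Psmb8 and Psmb9, subunits of the immunoproteasome, had 4.77 and 1.56, and 2.48 and 0.782. Tap1, which moves peptides to class I, had 0.742 and 0.109. The summed list had a median of 114 (25 to 294) and 39 (13 to 166) per lymphatic cell.

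Class II genes were found in few lymphatic cells of the vehicle library. For Cd74, H2-Ab1 and H2-Eb1 the share was below that of reference cells, and for H2-Aa it was above. Cd74, the invariant chain of class II, had means of 4.25 and 0.127 in lymphatic cells and was above 0 in 48.5% and 9.09% of them. In smooth muscle reference cells it was above 0 in 26.7% and 11.2%. The vehicle share in lymphatic cells was thus not above that of reference cells, and the reference share was itself higher in the GLPG0187 library. The reference had no limit on C1q genes, and its summed macrophage list reached 354 and 261 in single cells, so it is not a clean background. H2-Ab1 was above 0 in 49.5% and 5.45% of lymphatic cells against 22.6% and 9.34% of reference cells. For H2-Eb1 the shares were 35.1% and 5.45% against 16.7% and 6.78%, and for H2-Aa 40.2% and 10.9% against 18.3% and 6.04%. The part of free class II RNA in the difference was not tested. Lymphatic cells with 7 macrophage genes at 0, 75 and 48 cells, had Cd74 above 0 in 50.7% and 8.33% and Igtp at means of 1.72 and 0.292. Of the lymphatic cells with Cd74, 0 had Ptprc, Csf1r or Cd68 in either library. Only 2 and 1 lymphatic cells had any of these genes, so that 0 says little. In the GLPG0187 library 24 lymphatic cells had both Cd74 and Igtp, 23 had Cd74 alone, 25 had Igtp alone and 25 had neither.

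**Figure D4:**
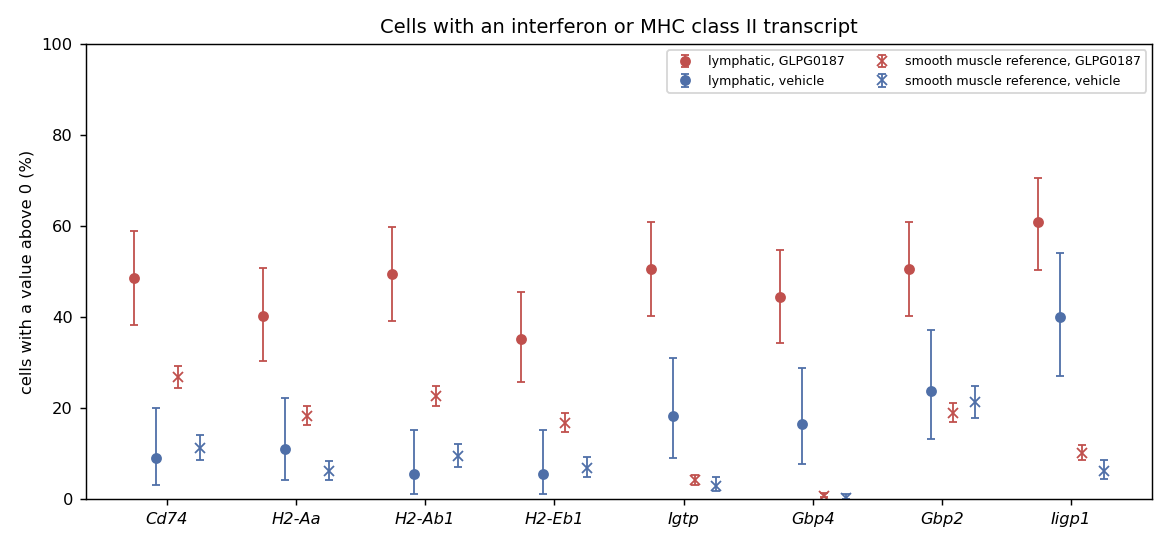
Percent of cells with a deposited value above 0 (vertical axis) for 8 interferon and MHC class II genes, in lymphatic cells (circles) and smooth muscle reference cells (crosses) of the GLPG0187 (red) and vehicle (blue) libraries, with 95% exact Clopper-Pearson intervals for counting error only. Cd74 is at 48.5% and 9.09% of lymphatic cells against 26.7% and 11.2% of reference cells, and Igtp at 50.5% and 18.2% against 4.15% and 2.93%.

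The list medians had the same direction in blood vessel cells and in both sexes. In blood vessel cells, which come from the same 2 libraries, 3.41% (288) of 8447 measured genes were at least 2-fold higher and 0.639% (54) lower with GLPG0187. There 13 of 21 measured interferon genes were higher with a median of 1.39, and 9 of 11 MHC genes with a median of 1.20. Blood vessel means of Igtp were 1.94 and 0.20 and those of Cd74 were 15.6 and 2.19. Among lymphatic cells with Xist alone, 26 and 12 cells, the interferon median was 2.15 and the MHC median 2.44, against 0.06 over all genes. Among those with Y-linked transcripts alone, 57 and 31 cells, they were 0.98 and 1.47, against 0 over all genes. Cd74 was above 0 in 65.4% and 0% of the first and 38.6% and 12.9% of the second. The 0 of 12 vehicle cells allows a share of up to 25%. The difference between the sexes was not tested.

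**Figure D5:**
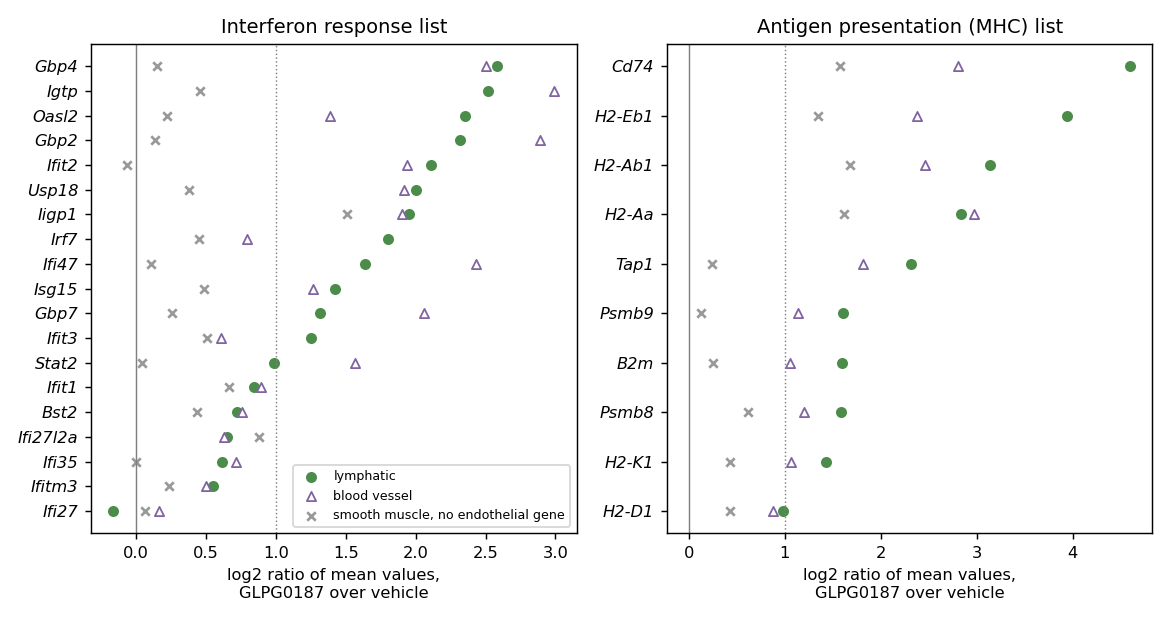
Log2 ratio of mean deposited values, GLPG0187 over vehicle (horizontal axis), for measured members of the interferon and MHC lists in lymphatic cells (green circles), blood vessel cells (open triangles) and smooth muscle reference cells (grey crosses), with a dotted line at a 2-fold ratio. Most lymphatic points of both lists lie past that line, while the reference points of most interferon genes lie near 0 and those of the class II genes lie above it.

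Promoter letters are shown for 2 interferon genes and 2 class II genes among the members that were higher with GLPG0187, because these groups had the highest list medians between the libraries. Each is the 250 bases before the start site from RefSeq on GRCm38.p6, read 5′ to 3′ along the gene's own strand. In Igtp and Isg15 capitals mark the letters of the interferon-stimulated response element (GAAANNGAAA or its reverse complement TTTCNNTTTC) and, in Igtp, also TTCNNNGAA, the gamma-activated site. In H2-Eb1 and H2-Aa they mark CTGATTGG, the core of the Y box of class II promoters.
Igtp, chr11:58199306-58199555, plus strand: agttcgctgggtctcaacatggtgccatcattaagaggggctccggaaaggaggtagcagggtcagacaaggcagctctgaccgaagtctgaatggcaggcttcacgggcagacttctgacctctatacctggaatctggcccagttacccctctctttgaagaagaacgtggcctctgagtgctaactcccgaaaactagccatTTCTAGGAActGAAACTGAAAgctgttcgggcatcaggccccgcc
Isg15, chr4:156200819-156201068, minus strand: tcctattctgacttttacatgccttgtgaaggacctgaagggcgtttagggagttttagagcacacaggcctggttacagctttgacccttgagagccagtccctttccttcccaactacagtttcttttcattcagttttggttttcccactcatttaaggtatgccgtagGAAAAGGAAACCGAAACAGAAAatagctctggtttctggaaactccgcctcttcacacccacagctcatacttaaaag
H2-Eb1, chr17:34305617-34305866, plus strand: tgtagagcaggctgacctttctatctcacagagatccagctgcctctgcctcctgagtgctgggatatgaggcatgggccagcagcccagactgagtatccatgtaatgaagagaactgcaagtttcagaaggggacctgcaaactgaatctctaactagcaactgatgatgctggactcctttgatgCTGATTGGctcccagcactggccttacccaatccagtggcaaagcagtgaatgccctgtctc
H2-Aa, chr17:34287824-34288073, minus strand: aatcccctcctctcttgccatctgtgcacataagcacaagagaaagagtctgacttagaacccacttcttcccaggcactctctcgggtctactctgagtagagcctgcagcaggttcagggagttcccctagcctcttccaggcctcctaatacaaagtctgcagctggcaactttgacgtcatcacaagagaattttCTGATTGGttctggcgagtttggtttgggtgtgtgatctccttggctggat
The response element lies at bases -34 to -25 from the start site in Igtp, and the gamma-activated site at -45 to -37. In Isg15, 3 overlapping copies of the response element run from -78 to -57. The Y box lies at -62 to -55 in H2-Eb1 and at -51 to -44 in H2-Aa. Both strands were searched in the promoters of 27025 genes, of which 3.46% held the response element, 8.13% the gamma-activated site and 4.43% the Y box or its reverse complement CCAATCAG. Of the 13 interferon genes higher in lymphatic cells 9 matched the promoter table, and 5 of these 9 held the response element and 3 the gamma-activated site. Of the 9 MHC genes 7 matched, and 4 of these 7 held the Y box, among them Tap1 and Psmb9, whose windows overlap and share it. A match describes the letters in this window and does not show that a factor binds there.

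Beyond these lists, the genes with the largest ratios that kept their direction in both sexes gave a mixed set. Sp100, a nuclear body protein, had means of 0.474 and 0.0364 in lymphatic cells and Trafd1, a regulator of innate signalling, had 0.443 and 0.0364. H2-Q6, a class I gene with close copies, had 1.81 and 0.236. Wnt9b, a Wnt ligand, had 0.753 and 0.0909 and was above 0 in 26.8% and 7.27% of lymphatic cells, against 0 in all smooth muscle reference cells. In blood vessel cells its means were 0.350 and 0.

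Of the genes that were lower with GLPG0187, those chosen by the same rule had means of at most 2.31 in either library. Ddit4, a stress-induced inhibitor of mTORC1, had means of 0.784 and 2.31 in lymphatic cells and was above 0 in 37.1% and 54.5% of them. Ddit4 was also lower with GLPG0187 in the other classes, at 0.470 and 0.973 in blood vessel cells and 0.130 and 0.223 in smooth muscle reference cells. Cep85l had 0.825 and 2.27, above 0 in 43.3% and 67.3% of cells, and Rara, a retinoic acid receptor, had 0.320 and 0.855. For Arrdc3, an arrestin family gene with means of 0.784 and 2.07, 33.0% and 30.9% of cells held a value, and the highest vehicle value was 37. Its means in smooth muscle reference cells were 0.572 and 1.10. Ackr4 had 0.598 and 1.35. Of 14 measured immediate early genes, which are switched on fast by growth signals and by tissue digestion, 2 were lower and 0 higher, with a median of -0.63. That median was -0.02 in cells with Xist alone, -1.17 in cells with Y-linked transcripts alone and -0.05 in blood vessel cells. Of 8 measured fibroblast genes 3 were higher with GLPG0187, with a list median of 0.69, which was 0.0063 without cells whose Dcn and Lum summed to 20 or more.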

How the data were processed

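The data were 2 single-cell libraries made with 10x Genomics 3' version 3 chemistry, per the labels' protocols. Groups came from the treatment label, with 1 library each. The deposited values are a score, whole numbers per gene and cell over 18920 genes, and were treated as corrected for depth because totals per cell are nearly even, although no label describes that step. Raw molecule counts per cell are therefore unknown, values could not be thinned to 1 depth, and total RNA per cell could not be compared. The submitters' processing notes list Cell Ranger, Seurat and the build mm10, with neither version nor role. Steps that removed doublets or poor cells before deposit are not stated in the sources used here.

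The cells were selected on the deposited values by the sums stated in the report. Scrublet, run on each library in scanpy 1.11.5, called 48 and 16 cells as doublets, which were kept in the values reported. The mean value per cell was taken in each class and library, and log2((mean + 0.05)/(mean + 0.05)) was computed, with no test because each group has 1 library and cells are not replicates. The 10 genes of the selection rule were left out of counts. Measured genes were above 0 in at least 10% of cells. Named genes were the 15 higher and 12 lower with the largest ratio in both libraries and above 0 in 25% of cells of the higher class, and for GLPG0187 over vehicle the 10 largest each way that kept their sign among Xist-only and Y-only cells (Xist above 0 without Ddx3y, Eif2s3y, Uty or Kdm5d, or the reverse), of 86 and 46 eligible, along with members of the gene lists. Genes of the Lyve1 grouping were ranked in the same way. Some list members are counted but not reported here by name. The members and lists were chosen with earlier results of these data known. Shares carry exact Clopper-Pearson 95% intervals. The ratio and its call were run on simulated data with known ratios, drawn without extra spread between cells or libraries. That run checks the computation and says nothing of the results reported here. Alternatives were another pseudocount, other filters, other thresholds, values scaled to 10000 per cell, a median-of-ratios scaling, each sex alone, and classes without doubtful cells. Python 3.11.15 was used with numpy 2.4.6, scipy 1.17.1, pandas 2.3.3 and matplotlib 3.10.9.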

Additional observations from a re-analysis of the deposited data

How the results depend on the processing

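No paired analysis was possible because each group has 1 library. Of 324 values of named genes for lymphatic over blood vessel cells 64 moved by more than 1.5-fold over the alternatives, and of 260 for GLPG0187 over vehicle 30 moved. None reversed, which is no sign of stability, since these genes were chosen for large ratios and for 1 sign in both libraries or both sexes. A sum of at least 5 for Mmrn1, Prox1 and Flt4, at least 2 of these genes above 0, leaving out called doublets, and leaving out lymphatic cells with Mmrn1 and Nts at 0 kept all 40 comparison and list results within the tolerance. The last of these, the limits on Dcn and Lum and the 7 macrophage genes at 0 were chosen after seeing the data. In the alternatives below genes were filtered again in the cells used, so list medians can differ from those of the report.

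As shares of gated endothelial cells the libraries held 49.2% and 42.3% lymphatic cells, and the share of all cells among Xist-only cells of the vehicle library was 1.26%. Genes higher in lymphatic than blood vessel cells numbered 225 with a pseudocount of 0.2 and 641 at 1.5-fold, against 339. Genes lower numbered 365 with that pseudocount, 340 with a filter of 25% of cells and 1106 at 1.5-fold, against 677. Genes higher with GLPG0187 in lymphatic cells, 230 as reported, numbered 1354 among Xist-only cells, 417 among Y-only cells, 73 with a pseudocount of 0.2, 617 with no filter, 68 with the 25% filter and 739 at 1.5-fold. Genes lower, 101 as reported, numbered 682, 360, 18, 324, 28 and 616 in the same order, and 169 with 7 macrophage genes at 0. These counts rest on small values and few cells, and the depth of each cell is unknown.

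For GLPG0187 over vehicle, the medians in Xist-only cells were 2.28 for interferon, 2.64 for MHC, -0.018 for immediate early and 0.94 for blood vessel genes. In Y-only cells they were -1.28 for immediate early and -0.32 for blood vessel genes, against 0.32 in all lymphatic cells. Without cells rich in Dcn and Lum the fibroblast median was 0.0063. For lymphatic over blood vessel cells, the medians without those cells were 3.85 for surface and secreted genes, -0.14 for fibroblast, -1.97 for blood vessel and -0.46 for lipid genes. In Xist-only cells they were 0.52 for the VEGF-C axis, 0 for collector and valve genes and -1.59 for fibroblast genes, and in Y-only cells -3.13 for fibroblast and -0.23 for lipid genes. With no filter on low values the VEGF-C axis stood at 0.23. The cause of these shifts was not tested.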

Other observations

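Cd2, an adhesion receptor known from T cells, was above 0 in 12.4% of lymphatic cells of the GLPG0187 library and 16.4% of those of the vehicle library, with means of 0.247 and 0.291. It was concentrated in cells with Lyve1, where it was above 0 in 25% and 33.3% of cells, against 3.51% and 3.23% of cells without Lyve1. In blood vessel cells its means were 0 and 0.0133, and in smooth muscle reference cells it was above 0 in 0.148% and 0%. Of the 7 lymphocyte genes in the files, 5 were at 0 in lymphatic cells of the GLPG0187 library and 6 in those of the vehicle library. Lepr, the leptin receptor, followed the same pattern, above 0 in 30% and 33.3% of lymphatic cells with Lyve1 and in 1.75% and 0% of those without. Ahsg, a plasma glycoprotein, lay the other way, with means of 0.05 and 0 with Lyve1 and 2.49 and 6.26 without, and of 0.633 and 2.33 once cells lacking Mmrn1 and Nts were left out. These genes were singled out after their values had been seen.

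Spp1, which encodes the alpha-v integrin ligand osteopontin, had means of 0.670 and 2.45 in lymphatic cells with GLPG0187 and vehicle but was above 0 in too few of them to be measured. The endocardium and valve list, which holds Wnt9b, had a summed median of 7 and 5 per lymphatic cell and the same medians in blood vessel cells.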
